A study of Mus musculus with 6 samples.

Results

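Among the cells of the mouse fracture callus, a small population carried transcripts of both Ihh and Col10a1, the pair of genes by which hypertrophic chondrocytes are usually recognised. A cell barcode was placed in this population by counts alone. It needed at least 5000 unique molecular identifiers (UMIs, each counting 1 captured transcript), at most 10% mitochondrial UMIs, at least 3 UMIs of Ihh and at least 0.5% of its UMIs from Col10a1, with at most 1 UMI of Ptprc, a leukocyte gene, and at most 1 of Cdh5, an endothelial gene. Of 46944 barcodes in 6 libraries, 25707 passed the limits on UMIs and mitochondrial share, and 839 of these met the whole rule, which is 3.26% of the barcodes that passed. These 839 are called Ihh/Col10a1 cells here. The cells they were set against are 1759 chondrocytes of the same libraries, in which Ucma, Cnmd, Matn3 and Scrg1 together made up at least 0.2% of UMIs and Ihh stayed under 3 UMIs.

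Hypertrophic chondrocytes are the last stage of the cartilage cell before cartilage is replaced by bone. They leave the cell cycle, enlarge, lay down collagen X and then mineralise and degrade their matrix while vessels enter it. Cells that enter hypertrophy secrete Indian hedgehog, which signals through Ptch1 and Smo to neighbouring cells and induces parathyroid hormone-related protein, and that protein acts back through Pth1r to hold younger chondrocytes in proliferation. In a healing fracture the soft callus passes through the same stages.

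The calluses came from femoral fractures of 12-week-old mice at 14 days post fracture, and the methods describe the mice as male. The 3 controls were Piezo1f/f mice, marked wt in the sample records, and the 3 knockouts were Piezo1Col2a1 mice, in which an inducible Cre under the Col2a1 promoter removes Piezo1, the gene of a mechanically gated ion channel, from cells that express Col2a1. The sample records of the knockouts write Piezo3 in place of Piezo1. Tamoxifen (75 mg/kg) was given to knockouts and controls alike, daily for 5 days starting on day 5 of healing, and cells of the digested calluses were captured with a 10x Genomics 3′ kit. Each library is taken as 1 mouse, as the sample records imply, although the study's text does not give the same number of mice throughout, and p-values between groups measure the spread between these libraries.

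The libraries held 69361237, 77384286 and 80735192 UMIs in controls 1 to 3 and 57626530, 103784364 and 102513582 UMIs in knockouts 1 to 3. They gave very unequal numbers of Ihh/Col10a1 cells, with 211, 53 and 10 in controls 1 to 3 and 69, 9 and 487 in knockouts 1 to 3. Knockout 3 alone held 58.0% of them. The chondrocytes numbered 231, 448 and 216 in the controls and 165, 0 and 699 in the knockouts, so knockout 2 had no chondrocyte to compare with. That library was instead rich in osteoblast-gated cells, in which Bglap, Bglap2 and Ifitm5 together made up at least 0.2% of UMIs, and held 708 of the 906. Controls 1 to 3 held 17, 45 and 36 of them and knockouts 1 and 3 held 6 and 94. The ends of ranges over osteoblast-gated cells can therefore rest on few cells. Barcodes with at least 3 Ptprc UMIs, 4898 in all, are called leukocytes.

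Several libraries stood apart before any gene was compared. The median Ihh/Col10a1 cell held 46615 UMIs in control 1 and 47825 in knockout 1, but 21042 and 19729 in controls 2 and 3 and 20098 and 19779 in knockouts 2 and 3. Replicate 1 of both groups had been counted with Cell Ranger 6.1.1 and the others with 6.1.2, and replicate 3 of both groups used another gene list. Xist, the transcript of the inactive X chromosome, reached 512 CPM in the Ihh/Col10a1 cells of knockout 3 against at most 0.311 CPM in the other libraries, and Ddx3y of the Y chromosome stood at 0 there against 51.4 to 165 CPM elsewhere. This goes against a design of male mice. A female mouse and a library exchanged with another sample cannot be told apart here, so the genotype of the library labelled knockout 3 rests on its label alone, and counts of called genes and shares of cells are also given without it. CPM here means UMIs of a gene summed over the cells of 1 kind in 1 library, per 1000000 UMIs of the genes that all libraries list. In the 10 cells of control 3 and the 9 cells of knockout 2, 1 UMI amounts to 4.65 and 4.67 CPM, so low values in these libraries rest on few UMIs.

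**Figure D1:**
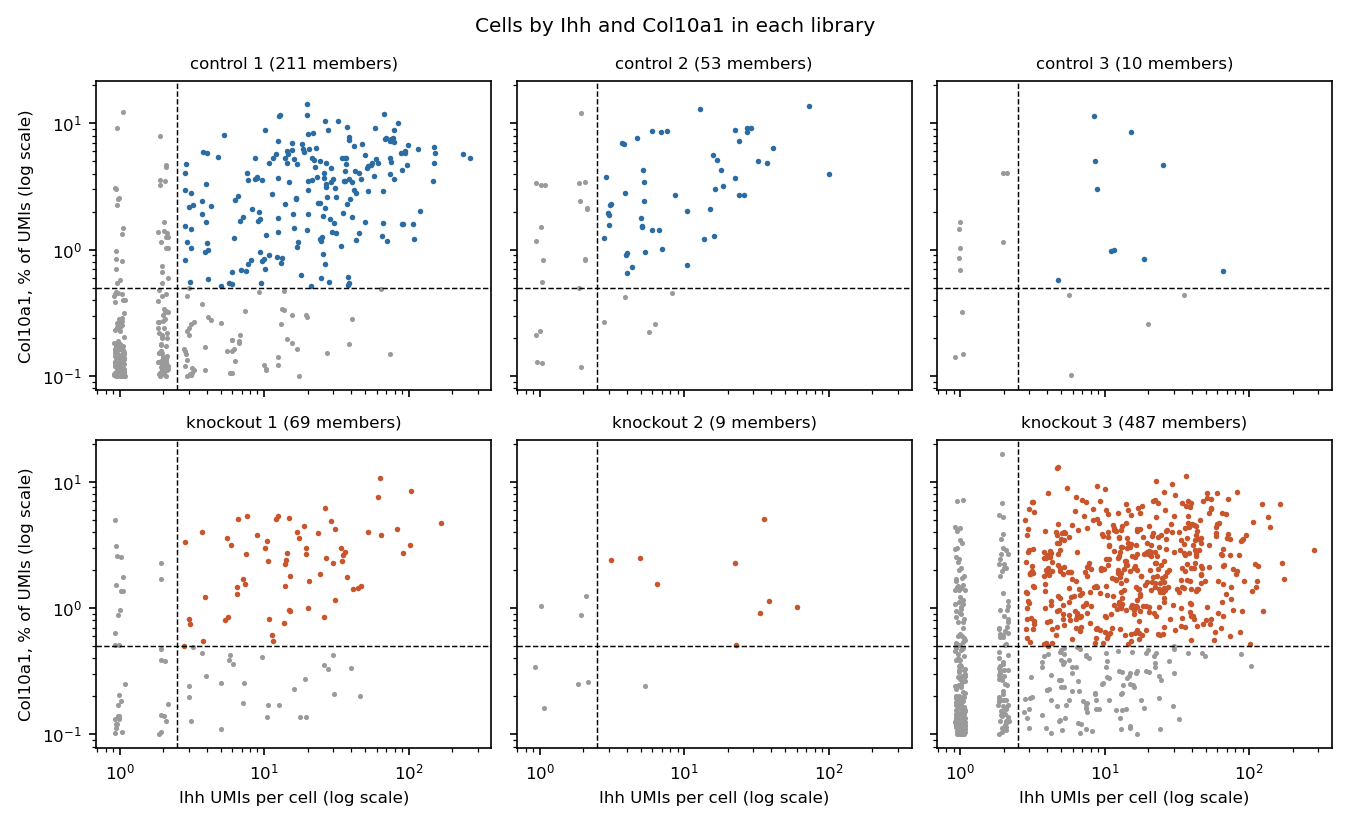
Each panel is 1 library and each point 1 barcode with at least 1 Ihh UMI and at least 0.1% of its UMIs from Col10a1, with Ihh UMIs on the horizontal log axis and the Col10a1 share of UMIs in percent on the vertical log axis. Ihh is jittered, dashed lines mark the limits (at least 3 UMIs and 0.5%), and the coloured points are the Ihh/Col10a1 cells (members), 211, 53 and 10 in controls 1 to 3 and 69, 9 and 487 in knockouts 1 to 3. The clouds run across the limits without a gap.

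The genes of the rule set the scale of the population, and their values are given as a description only. Ihh stood at 754, 659.5 and 852 CPM in the controls and 536, 1079 and 1252 CPM in the knockouts. Chondrocytes of the same libraries held 18.3, 6.35 and 7.64 CPM in the controls and 10.1 and 25.7 CPM in knockouts 1 and 3, and leukocytes held 0.362 to 60.4 CPM, which is the background in cells of another type. This background was uneven between cells. In knockout 3, which was highest, the median leukocyte held 0 Ihh UMIs and the highest 91. Of the 648 leukocytes there, 16 passed the limits on both Ihh and Col10a1. Col10a1, which encodes the collagen of hypertrophic cartilage, stood at 36558, 39452 and 26407 CPM in the controls and 29013, 16467 and 23901 CPM in the knockouts, and in chondrocytes at 1889, 1179 and 451 CPM in the controls and 1211 and 1821 CPM in knockouts 1 and 3. The other genes of the rule also differed in part by construction, since 91, 35 and 3 Ihh/Col10a1 cells of the controls and 29, 0 and 136 of the knockouts also passed the limit on Ucma, Cnmd, Matn3 and Scrg1. The median share of UMIs from those 4 genes was 0.161%, 0.301% and 0.139% in the controls and 0.140%, 0.0211% and 0.0646% in the knockouts.

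The limits divide a continuum, as the plot of Ihh UMIs against Col10a1 share shows. Just inside the Ihh limit, with 3 or 4 UMIs, lay 23, 14 and 0 of the Ihh/Col10a1 cells in the controls and 7, 1 and 60 in the knockouts. Just outside it, 34, 16 and 8 control barcodes and 15, 3 and 87 knockout barcodes had enough Col10a1 but only 1 or 2 UMIs of Ihh. Another 411 barcodes had at least 3 UMIs of Ihh and less Col10a1 than the rule asks. The limits on Ptprc and Cdh5 removed 9, 3 and 0 barcodes of the controls and 6, 1 and 48 of the knockouts. High doublet scores were found for 6, 8 and 1 of the Ihh/Col10a1 cells in the controls and for 0, 0 and 26 in the knockouts, and these cells were kept. No more than 0.383% of the barcodes of a library recurred in another library.

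Ihh lies on chromosome 1 (positions 74945315 to 74951672, minus strand, GRCm38) and Col10a1 on chromosome 10 (34389981 to 34397085, plus strand). The 150 bases before the transcription start are shown for these genes of the rule and for Mmp13 and Spp1, genes of late hypertrophy, because the RUNX factors known to act in hypertrophic chondrocytes bind the core TGTGGT. The windows are from the RefSeq promoter table on GRCm38.p6, 5′ to 3′ on the strand of the gene, and capitals mark the core or its reverse complement ACCACA.
Mmp13, chr9:7272364-7272513, plus strand: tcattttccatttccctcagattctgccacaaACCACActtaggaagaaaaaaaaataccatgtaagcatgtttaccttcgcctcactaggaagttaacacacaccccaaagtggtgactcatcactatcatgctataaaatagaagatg
Spp1, chr5:104434961-104435110, plus strand: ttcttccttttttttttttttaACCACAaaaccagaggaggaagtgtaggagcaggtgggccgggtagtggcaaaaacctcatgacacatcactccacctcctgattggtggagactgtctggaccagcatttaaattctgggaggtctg
Col10a1, chr10:34389831-34389980, plus strand: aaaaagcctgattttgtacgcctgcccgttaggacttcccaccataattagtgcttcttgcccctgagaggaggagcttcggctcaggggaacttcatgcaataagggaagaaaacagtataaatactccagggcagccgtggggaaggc
Ihh, chr1:74951673-74951822, minus strand: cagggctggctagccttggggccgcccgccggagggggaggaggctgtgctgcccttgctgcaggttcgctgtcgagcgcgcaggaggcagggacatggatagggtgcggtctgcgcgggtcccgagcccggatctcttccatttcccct
Both strands were searched over 250 bases before each start. The core was found once for Mmp13, 118 bases before the start, with no match for Col10a1 or Ihh. It was also found once for Spp1, 128 bases before 1 of its 2 starts in the table. The Spp1 start shown was picked by its number of matches, most first, so the choice favours a match. The other Spp1 start is not shown. Of all 32851 starts in the table, 4614 had a match in a window of that length (14%). Among the genes of the hypertrophy list that were higher in Ihh/Col10a1 cells, 15 of 18 were in the table and 3 of their 26 starts had a match (11.5%). Of the 15 genes most in excess over chondrocytes, 11 were in the table and 0 of their 16 starts had one (0.0%). A match is a description of the letters in the window and not a bound site, and a window without one says only that these letters are not in it.

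The label of a hypertrophic chondrocyte was checked with 9 genes that the rule did not use, Runx2, Runx3, Mef2c, Pth1r, Panx3, Alpl, Ibsp, Spp1 and Mmp13. Of these, 8 were higher in Ihh/Col10a1 cells than in chondrocytes, and Runx3 alone was not (0.04 ± 0.11 on the log2 scale). Not all 8 were highest in this population. In barcodes with Ihh but less Col10a1, the median library value was 889 against 724 CPM for Panx3 and 1683 against 1541 CPM for Alpl. Medians of Pth1r, Ibsp, Runx2, Mef2c, Spp1 and Mmp13 were lower there. Markers of cartilage were still present at high levels in the Ihh/Col10a1 cells. Col2a1, the main cartilage collagen, stood at 55668, 59768 and 40865 CPM in the controls and 55604, 15159.7 and 36312 CPM in the knockouts and in chondrocytes at 60242, 61242 and 32612 CPM in the controls and 66304 and 53654 CPM in knockouts 1 and 3. Sox9, the transcription factor of the cartilage lineage, stood at 893, 769.8 and 563 CPM in the controls and 1085, 98.1 and 537 CPM in the knockouts. Knockout 2 was low for both. Of 3 further genes named with the rule, Pank1 and Scube3 were higher in every library fitted, while Rbp4 was higher in 4 of 5 (1.04 ± 0.28) and lower in control 3, at 1675 against 2795 CPM.

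Piezo1 itself did not separate the libraries by genotype. It stood at 83.1, 51.8 and 51.2 CPM in the controls and 145, 42.0 and 42.9 CPM in the knockouts in Ihh/Col10a1 cells, with the highest value in knockout 1, and at 52.1, 40.1 and 45.5 CPM in the controls and 117 and 47.3 CPM in knockouts 1 and 3 in chondrocytes. The fitted difference between genotypes in Ihh/Col10a1 cells was 0.58 ± 0.45 on the log2 scale (edgeR adjusted p = 1.0). The 3′ kit counts transcripts at their 3′ end whether or not the deleted exons remain, so these counts neither check the deletion nor show that it failed.

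Ihh/Col10a1 cells were then compared with chondrocytes gene by gene, in an edgeR fit with the library as a block over the 5 libraries with at least 10 cells of each kind. Knockout 2 was not in this fit. The cells of both kinds had been chosen by genes measured in the same cells, so the calls and fold changes describe the population and are no test of it. Of 13156 genes, 4599 passed an adjusted p of 0.05 (35.0%), of which 2243 were higher in Ihh/Col10a1 cells (17.0%) and 2356 lower (17.9%). The median difference over all genes was -0.006 on the log2 scale, as TMM scaling centres it, and with library totals without TMM 2151 genes were higher and 2450 lower. Left out of the fit, control 1 gave the fewest calls, 2957, and without knockout 3 there were 3147.

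The 15 genes most in excess were taken from those with the same direction in every library fitted and at least 50 CPM on average. Pank1, which encodes the enzyme that starts coenzyme A synthesis, stood at 331, 209 and 46.5 CPM in the controls and 303, 84.1 and 470.2 CPM in the knockouts. Chondrocytes held 22.2, 8.70 and 5.82 CPM in the controls and 19.2 and 22.9 CPM in knockouts 1 and 3, and the difference was 4.18 ± 0.16 on the log2 scale. Every library fitted lay above every chondrocyte value, with control 3 lowest. Aldh1a3, which makes retinoic acid from retinaldehyde, stood at 388, 474 and 158 CPM in the controls and 352, 107 and 256 CPM in the knockouts, against 19.5, 5.88 and 10.5 CPM in the controls and 19.5 and 33.2 CPM in knockouts 1 and 3 in chondrocytes (4.31 ± 0.35). The groups of values did not overlap here either, and knockout 2 lay below the libraries fitted. Scube3, which encodes a secreted protein of a family that helps to release hedgehog from the cell surface, stood at 119, 160.4 and 14 CPM in the controls and 112, 4.67 and 114 CPM in the knockouts, against 3.55 to 9.02 CPM in chondrocytes (4.30 ± 0.26). Its 2 low values, in control 3 and knockout 2, rest on the libraries with the fewest cells.

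Cds1, which encodes an enzyme that makes CDP-diacylglycerol for phospholipid synthesis, had the largest fold of the 15, 4.48 ± 0.20, at 32.6 to 140.0 CPM in the 5 libraries against 3.17 to 5.28 CPM in chondrocytes. Ddit4l, an inhibitor of mTOR signalling, reached 214 to 607 CPM against 22.5 to 49.2 CPM (3.66 ± 0.14). Both genes were near the chondrocyte level or lower in osteoblast-gated cells, with 0 to 3.28 CPM and 0 to 45.1 CPM. The amino acid transporter Slc38a4 (3.48 ± 0.14), the kinase Wnk4 (3.44 ± 0.20) and the lysyl oxidase-like enzyme Loxl4 (3.28 ± 0.23) were likewise higher in all 5 libraries, without overlap with chondrocytes. Epas1, which encodes the hypoxia-inducible factor HIF-2α, stood at 106, 101 and 55.8 CPM in the controls and 120.2, 70.1 and 89.6 CPM in the knockouts and in chondrocytes at 9.46 to 14.1 CPM (3.12 ± 0.13). Ptges, the prostaglandin E synthase, was higher by 3.09 ± 0.29 and highest in knockout 3, at 133 CPM. The list of 15 was completed by Gm4258 (3.34), a predicted gene, and by 4 genes that osteoblast-gated cells held as well.

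Those 4 were Irx5, Hpgd, Jam2 and Bmp8a. Irx5, a homeobox factor, stood at 349, 347 and 223 CPM in the controls and 381, 355 and 553 CPM in the knockouts, against 10.7 to 47.4 CPM in chondrocytes and 61.5 to 221 CPM in osteoblast-gated cells (3.89 ± 0.20). Hpgd, which inactivates prostaglandins, stood at 653, 547 and 838 CPM in the controls and 654, 458 and 761 CPM in the knockouts, with 26.4 to 116 CPM in chondrocytes and 26.2 to 507 CPM in osteoblast-gated cells. The signal protein Bmp8a stood at 27.9 to 91.7 CPM in the 5 libraries, 3.27 to 10.2 CPM in chondrocytes and 24.6 to 89.2 CPM in osteoblast-gated cells. For Bmp8a the ranges of Ihh/Col10a1 cells and osteoblast-gated cells overlapped, whereas Pank1 reached only 2.05 to 10.7 CPM in osteoblast-gated cells.

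**Figure D2:**
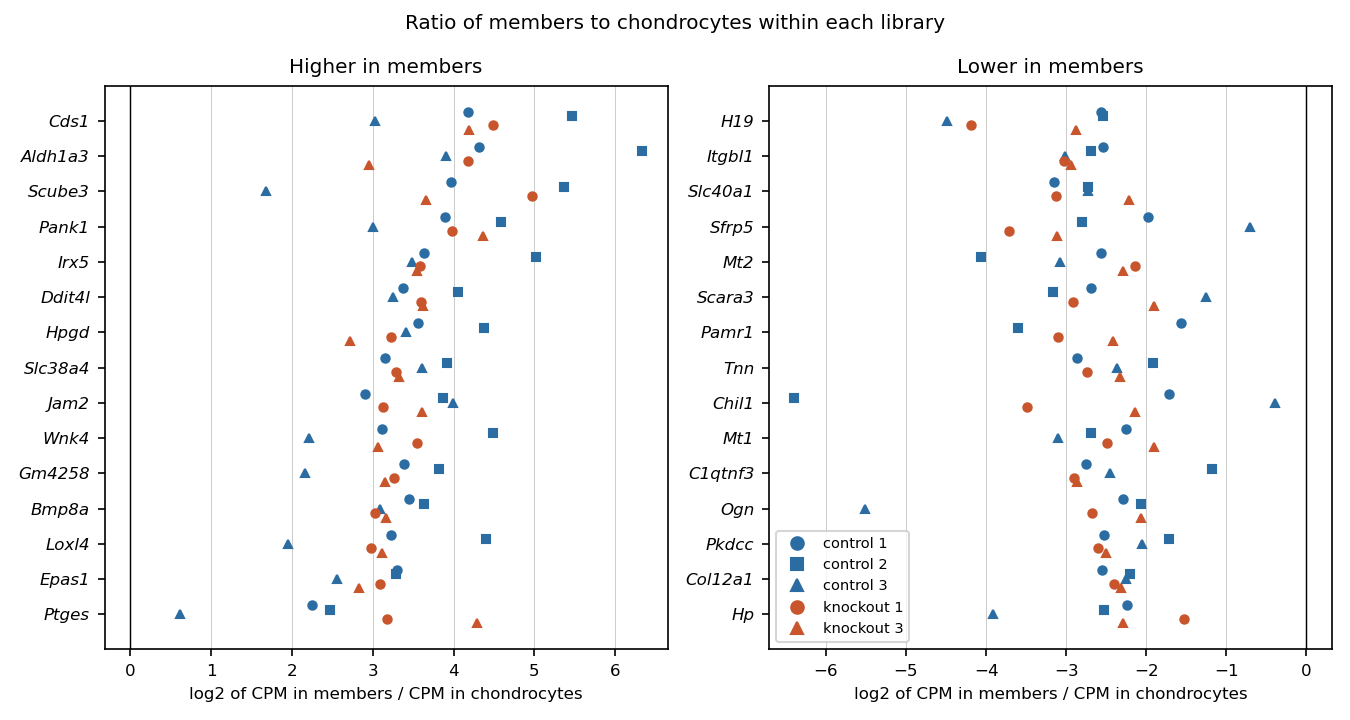
Log2 ratio of CPM in Ihh/Col10a1 cells to CPM in chondrocytes of the same library, on the horizontal axis, for the 15 genes with the largest fold in each direction among those with a mean of at least 50 CPM and 1 direction in all 5 libraries. Each point is 1 of the 5 libraries with both kinds of cell. All points of the 15 higher genes lie right of 0 and all points of the 15 lower genes left of 0, with Cds1 (4.48 in the fit) at one end and H19 (-3.06) at the other.

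The 15 genes most reduced were taken in the same way. H19, an imprinted noncoding RNA of growing tissue, stood at 1720.5, 1130.2 and 626 CPM in the controls and 850.1 and 494 CPM in knockouts 1 and 3 in chondrocytes and at 291, 194 and 27.9 CPM in the controls and 46.7, 28.0 and 67.2 CPM in the knockouts in Ihh/Col10a1 cells (-3.06 ± 0.23). No value of the 5 fitted libraries overlapped. The iron exporter Slc40a1 was lower by -2.75 ± 0.15 in the fit, at 13.2 to 27.9 CPM in the 5 libraries, although it stood at 196 CPM in knockout 2. The metallothioneins Mt1 (-2.39 ± 0.15) and Mt2 (-2.56 ± 0.20), which bind zinc and copper, were lower in all 5 libraries, with Mt1 at 155 to 354 CPM against 771 to 1765 CPM in chondrocytes.
Sfrp5, an inhibitor of WNT signalling, was at 5.09 to 41.9 CPM against 35.5 to 187 CPM (-2.68 ± 0.26). The matrix genes Tnn (-2.42), which encodes tenascin N, Ogn (-2.37), a small leucine-rich proteoglycan, and Col12a1 (-2.30), a collagen at the surface of fibrils, were lower in each library, as were Itgbl1 (-2.75), Scara3 (-2.44), Pamr1 (-2.42), the adipokine C1qtnf3 (-2.39) and the secreted kinase Pkdcc (-2.32). Chil1 (-2.39) and the acute-phase gene Hp (-2.27) closed the list. Leukocytes carried Hp at 108 to 624 CPM, more in every library than Ihh/Col10a1 cells did.

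Of 30 genes known for hypertrophy, 27 were tested, of which 18 were higher, 2 lower and 7 not called. Over all genes 17.0% were higher and 17.9% lower. The list had a median of 1.13 against -0.006 over all genes. Transcription factors of hypertrophy were among the genes of the list. Mef2c, which drives Col10a1 in growth plates, stood at 1649.7, 1063 and 1149 CPM in the controls and 1615, 743 and 1198 CPM in the knockouts. In chondrocytes it stood at 384, 229 and 240.4 CPM in the controls and 419 and 356 CPM in knockouts 1 and 3, so that no values overlapped (2.10 ± 0.12). Runx2, the other main driver, stood at 306, 167 and 214 CPM in the controls and 297, 145 and 191 CPM in the knockouts, against 71.3 to 125 CPM in chondrocytes (1.43 ± 0.11). Foxa2 (2.02 ± 0.20) and Foxa3 (1.55 ± 0.14), which act with them in late hypertrophy, were higher without overlap, while Sp7 (-0.18 ± 0.11) and Sox9 (-0.02 ± 0.12) were not called. Hdac4, whose protein holds back Runx2 and Mef2c, was one of the 2 lower genes (-0.83 ± 0.15), the other being Cbfb (-0.63 ± 0.12).

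Products of late hypertrophy were higher but uneven between libraries. Mmp13, the collagenase of cartilage resorption with a RUNX core in its promoter window, stood at 1249, 398 and 865 CPM in the controls and 1848, 3872 and 1550.5 CPM in the knockouts. Chondrocytes held 94.0, 386 and 129.8 CPM in the controls and 249.7 and 212 CPM in knockouts 1 and 3, and only control 2, at 398 against 386 CPM, showed almost no difference (2.58 ± 0.38 in the fit). 5 of 5 libraries were nonetheless higher. Spp1, which encodes osteopontin, stood at 4243, 5716 and 27845 CPM in the controls and 6898, 37339 and 13079 CPM in the knockouts and in chondrocytes at 1419, 3243 and 4041 CPM in the controls and 2459.9 and 4599 CPM in knockouts 1 and 3 (1.68 ± 0.22). Its spread between libraries, with control 3 and knockout 2 highest, was wider than that of most genes of the list. Ibsp, the bone sialoprotein, stood at 20872, 11579.9 and 19618 CPM in the controls and 23647, 50252 and 11141 CPM in the knockouts, above the 1392 to 9515 CPM of chondrocytes (1.78 ± 0.30). Vegfa, the signal that attracts vessels, stood at 271, 263 and 102 CPM in the controls and 330.4, 107 and 287 CPM in the knockouts and in chondrocytes at 37.7 to 97.1 CPM (2.05 ± 0.19). Alpl (1.13 ± 0.18), Bmp6 (2.34 ± 0.22) and Wnt5b (1.56 ± 0.17) were higher without overlap as well.

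In the Indian hedgehog and PTHrP loop, Ihh/Col10a1 cells carried the ligand gene Ihh because the rule required it. They held more of Pth1r, the receptor gene for PTHrP, than chondrocytes, and less of the genes that report hedgehog reception. Of 22 genes of the loop tested, 4 were higher and 11 lower, with a median of -0.60. Over all genes 17.0% were higher and 17.9% lower, so the count of higher genes lay near the background. Pth1r stood at 2667, 2135 and 1679.8 CPM in the controls and 2561, 4049 and 2197 CPM in the knockouts. The chondrocytes held 967, 640.3 and 714 CPM in the controls and 1239 and 1246 CPM in knockouts 1 and 3, below all of these (1.31 ± 0.15). Ptch1, the hedgehog receptor and itself a target of the pathway, stood at 151, 121 and 112 CPM in the controls and 124, 74.7 and 68.9 CPM in the knockouts, far under the 549, 288 and 539.7 CPM in the controls and 507 and 264 CPM in knockouts 1 and 3 of chondrocytes (-1.80 ± 0.14). The ratio held in all 5 libraries, and knockout 2 lay within the same low range. Gli1, a second target, stood at 5.70, 0 and 9.31 CPM in the controls and 3.31, 0 and 3.81 CPM in the knockouts, against 17.7 to 31.9 CPM in chondrocytes (-2.52 ± 0.22). These Gli1 values rest on few UMIs in controls 2 and 3.

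The other receptors on the cell surface were mostly lower as well. Gas1, a co-receptor of hedgehog, was at 6.03 to 14 CPM against 25.9 to 85.8 CPM in chondrocytes (-2.18 ± 0.28), and the co-receptors Boc (-0.95 ± 0.18) and Cdon (-1.07 ± 0.16) were lower too. Smo, the signal transducer that Ptch1 inhibits, was not called (-0.30 ± 0.11). Hhip, which binds and sequesters hedgehog, was lower (-1.68 ± 0.29). On the side of ligand release, Disp1, which frees hedgehog from the membrane, was higher (1.08 ± 0.17), as were Scube1 (0.77 ± 0.17) and Scube3, whereas Scube2 was lower (-1.99 ± 0.23) and so was Hhat (-1.41 ± 0.24), which palmitoylates the ligand.

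**Figure D3:**
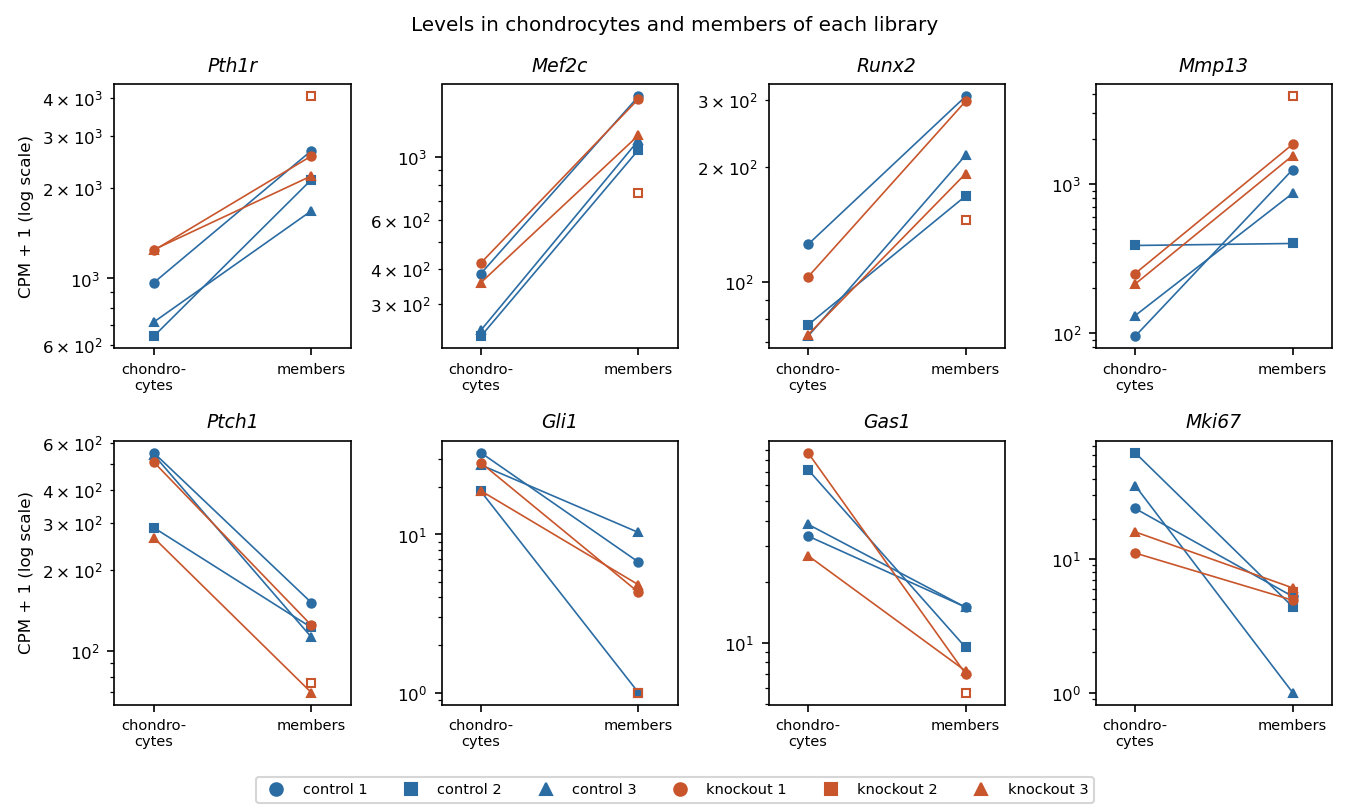
Levels of Pth1r, Mef2c, Runx2, Mmp13, Ptch1, Gli1, Gas1 and Mki67 in Ihh/Col10a1 cells (members) and in chondrocytes of each library, as CPM + 1 on a log axis. Lines join the kinds of cell of 1 library and the open square is knockout 2, which has no chondrocytes. Pth1r, Mef2c, Runx2 and Mmp13 lie higher and Ptch1, Gli1, Gas1 and Mki67 lower in the Ihh/Col10a1 cells of all 5 libraries with both kinds.

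The list of cartilage matrix had more genes lower than higher. Of 25 genes tested, 3 were higher and 10 lower (median -0.24), beside 17.0% of all genes higher and 17.9% lower. Col2a1 (-0.08 ± 0.18), Acan (0.21 ± 0.15), Col11a1 (-0.21 ± 0.17) and Comp (-0.31 ± 0.16) were not called. Snorc, a small transmembrane proteoglycan of cartilage, stood at 7719.6, 8642 and 6817 CPM in the controls and 7443, 6431 and 11438 CPM in the knockouts, against 3783, 4395 and 2015 CPM in the controls and 3925 and 6479 CPM in knockouts 1 and 3 in chondrocytes (1.15 ± 0.16). Every fitted value of Snorc lay above every chondrocyte value. The leucine-rich proteoglycans Prelp (-1.89 ± 0.15) and Fmod (-1.46 ± 0.14) and the adaptor Matn4 (-1.81 ± 0.17) were lower without overlap, Fmod at 395 to 1163 CPM against 1413 to 2529.8 CPM. Col9a1 (-0.72 ± 0.14), Col11a2 (-0.54 ± 0.16) and Col6a1 (-0.95 ± 0.16) were lower by smaller amounts.

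For mineral and bone matrix, 8 of 22 genes were higher and 6 lower (median 0.01), beside 17.0% of all genes higher and 17.9% lower. Phex, an endopeptidase of phosphate homeostasis, was at 56.4 to 161 CPM against 3.17 to 26.3 CPM in chondrocytes (2.56 ± 0.27), but at 4.67 CPM in knockout 2. Fam20c, the kinase of secreted phosphoproteins, was higher (1.32 ± 0.17), and so was Smpd3 (0.76 ± 0.13), a sphingomyelinase needed for mineralisation. In contrast, Col1a1, the main collagen of bone, stood at 3664, 3443 and 2680.3 CPM in the controls and 3714, 1803 and 3071 CPM in the knockouts and in chondrocytes at 8533, 8837 and 23896 CPM in the controls and 12628 and 9059 CPM in knockouts 1 and 3 (-1.74 ± 0.24). Col1a2 (-1.06 ± 0.15) and Cthrc1 (-2.13 ± 0.18), a collagen-regulating secreted protein, were lower without overlap. Bglap, which encodes osteocalcin, was not called (0.56 ± 0.25) and stood at 179.6 and 177 CPM in Ihh/Col10a1 cells and chondrocytes of knockout 3, the library with the most.

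Among proteases and their inhibitors, 5 of 21 genes were higher and 9 lower, beside 17.0% of all genes higher and 17.9% lower. Besides Mmp13 and Mmp3, the higher genes were Adamts1 (0.89 ± 0.12), Ctsl (0.92 ± 0.14) and the inhibitor Timp3 (1.37 ± 0.12). The Mmp3 call rested on few cells, since 1 barcode held 96.6% of its 2270 UMIs in knockout 1 and 1 barcode 28 of 33 UMIs in control 3, with 5, 0 and 18 UMIs in controls 1 and 2 and knockout 3. The gelatinase Mmp2 (-1.84 ± 0.16) and its membrane-bound activator Mmp14 (-1.23 ± 0.11) were lower in each library, with Mmp2 at 112 to 199 CPM against 415 to 724 CPM. Mmp9 was not called (-0.06 ± 0.21). It stood at 84.6 CPM in the Ihh/Col10a1 cells of knockout 3 and at 995 CPM in leukocytes of that library.

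Genes of the cell cycle were low. Of 26, 20 were lower and 1 higher, with a median of -1.46, beside 17.9% of all genes lower and 17.0% higher. Mki67, a marker of cycling cells, stood at 4.25, 3.40 and 0 CPM in the controls and 3.92, 4.67 and 5.08 CPM in the knockouts and in chondrocytes at 22.9, 61.6 and 34.6 CPM in the controls and 10.1 and 15 CPM in knockouts 1 and 3 (-2.15 ± 0.26). Cenpf (-2.77 ± 0.32) and Top2a (-1.72 ± 0.28), which act in mitosis, did not overlap between the kinds of cell. The gene with the opposite direction was Mcm6 (0.89 ± 0.14), a helicase subunit of DNA replication. Among 20 inhibitors and senescence genes, 5 were higher and 4 lower, close to the 17.0% and 17.9% of all genes. Cdkn1a, which encodes p21, stood at 652, 751 and 642 CPM in the controls and 619.9, 4979 and 901 CPM in the knockouts, above the 220.4 to 489 CPM of chondrocytes (1.15 ± 0.13). Cdkn1c, which encodes p57, stood at 571, 636 and 158 CPM in the controls and 376, 70.1 and 375 CPM in the knockouts, against 150.2, 152 and 80.0 CPM in the controls and 194 and 329 CPM in knockouts 1 and 3 (1.30 ± 0.23). The 5 libraries agreed in direction, while knockout 2 was low for p57 and far above all others for p21. Cdkn2a was not called (-0.37 ± 0.18), and Trp53 was lower without overlap (-0.78 ± 0.12).

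Growth factors and their receptors went both ways. Of 41 genes, 13 were higher and 16 lower (median -0.25), beside 17.0% of all genes higher and 17.9% lower. Bmp2, a strong inducer of bone and cartilage, stood at 488, 290.3 and 41.9 CPM in the controls and 964, 28.0 and 481 CPM in the knockouts, against 56.9, 41.7 and 21.1 CPM in the controls and 96.2 and 78.2 CPM in knockouts 1 and 3 in chondrocytes (2.87 ± 0.20). Controls 2 and 3 and knockouts 1 to 3 thus ranged widely, but each fitted library lay above its own chondrocytes. The BMP antagonist Nog was higher too (2.30 ± 0.19), whereas the antagonists Grem1 (-3.15 ± 0.21) and Chrdl2 (-2.15 ± 0.21) were lower. Among FGF receptors, Fgfr1 stood at 745, 355 and 339.7 CPM in the controls and 883, 392 and 583 CPM in the knockouts, against 96.2 to 154 CPM (2.20 ± 0.18), Fgfr2 was lower (-1.61 ± 0.12) and Fgfr3 was not called (-0.25 ± 0.17). Igf1 was lower (-2.01 ± 0.35), and Frzb, a secreted WNT inhibitor of cartilage, was higher (1.16 ± 0.23). Of 14 genes that signal to osteoclasts and vessels, 5 were higher and 4 lower, beside 17.0% of all genes higher and 17.9% lower. Csf1 (1.49 ± 0.17) and the chemokine scavenger Ackr3 (1.96 ± 0.11) were among the higher genes of this list. Tnfrsf11b (-0.62 ± 0.15), the decoy receptor of RANKL, was among the lower. Tnfsf11, RANKL itself, was at 0 to 10.8 CPM in the 5 libraries and was not called (0.89 ± 0.33).

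Of 24 chondrocyte transcription factors, 4 were higher and 10 lower, beside 17.0% of all genes higher and 17.9% lower, so that the count of higher factors lay near the background. Sox5 (-1.39 ± 0.11) and Sox6 (-0.50 ± 0.11), partners of Sox9, were lower, as were Nfatc2 (-1.30 ± 0.15), Runx1 (-0.81 ± 0.13) and Zfp521 (-1.09 ± 0.15). Besides Runx2, the higher factors were Foxo1 (0.40 ± 0.11), Foxc1 (0.38 ± 0.11) and Glis3 (0.36 ± 0.13).

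Beside the 35.0% of all genes that were called, the metabolic lists had called shares of 40.0% (coenzyme A synthesis), 75% (retinoid handling), 34.4% (glycolysis and hypoxia) and 17.2% (oxidative phosphorylation). Of 10 genes of coenzyme A synthesis, 3 were higher, Pank1, Pank2 (0.82 ± 0.12) and Pank3 (0.84 ± 0.12), which catalyse the same first step, and Coasy, which catalyses the last steps, was lower (-0.73 ± 0.17). In retinoid handling, 6 of 12 genes were higher and 3 lower. Rdh10, which makes the substrate of Aldh1a3, was higher in 4 of 5 libraries (2.54 ± 0.21), and Cyp26b1, which degrades retinoic acid, was at 12.1 to 36.1 CPM against 47.3 to 88.4 CPM (-1.77 ± 0.15). Control 3 was the exception for Rdh10. Of 32 genes of glycolysis and hypoxia, 7 were higher and 4 lower (median 0.04), with Slc2a1 (0.79 ± 0.15), the glucose transporter, and Bnip3 (0.70 ± 0.18) on the higher side beside Vegfa and Epas1, and Hif1a not called (-0.09 ± 0.12). Of 29 nuclear genes of oxidative phosphorylation, 4 were higher and 1 lower (median 0.08), among them Cox6c (0.87 ± 0.13), whose values did not overlap.

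The called genes of collagen folding and secretion went one way. Of 31 genes, 0 were higher, 22 lower and 9 not called, with a median of -0.45. Over all genes 17.0% were higher and 17.9% lower. Plod2, a lysyl hydroxylase of collagen telopeptides, was at 484 to 968 CPM against 1021 to 1659.9 CPM (-0.88 ± 0.11). The collagen chaperones Serpinh1 (-0.74 ± 0.12) and Fkbp10 (-0.85 ± 0.14) and Creb3l2 (-1.26 ± 0.11), a transcription factor of the secretory pathway, were lower. Of 14 genes of the ER stress response, 4 were lower and Atf3 alone was higher (0.61 ± 0.14), and the 35.7% called lay at the 35.0% of all genes.

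Of 16 genes of mechanical sensing, 4 were higher and 6 lower, beside 17.0% of all genes higher and 17.9% lower. Piezo1 was not called (0.34 ± 0.13, higher in 4 of 5 libraries). Piezo2, its relative, was at 0 to 7.67 CPM against 15.7 to 40.8 CPM in chondrocytes (-2.27 ± 0.18), and the channel Trpv4 was lower (-0.90 ± 0.14). The sulfate transporter Slc26a2, which supplies proteoglycan synthesis, was lower without overlap (-1.53 ± 0.12), and the amino acid transporter Slc38a2 was higher (1.37 ± 0.17). Among 12 genes that the study follows, Runx2 and Spp1 were higher, Trp53 and Col1a1 lower and 8 not called. The 33.3% called lay near the 35.0% of all genes. Apoe, one of the 8, stood at 78.1, 61.1 and 135 CPM in the controls and 101, 149 and 146 CPM in the knockouts and in chondrocytes at 92.8, 85.0 and 121 CPM in the controls and 148 and 181 CPM in knockouts 1 and 3 (-0.28 ± 0.11).

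Markers of neutrophils and macrophages were far lower than in leukocytes. Those of fibroblasts and osteoblasts summed to more than the neutrophil and macrophage markers did. Summed over 8 neutrophil genes, the Ihh/Col10a1 cells held 63.3, 844 and 265 CPM in the controls and 140.4, 752 and 1511 CPM in the knockouts, led by S100a9. Chondrocytes held 75.3, 1010.1 and 343 CPM in the controls and 291 and 1413 CPM in knockouts 1 and 3 and leukocytes 13709 to 80322 CPM. The order of the libraries was similar in both kinds of cartilage cell, and 1 of 6 tested genes, Retnlg, was lower and none higher. Summed over 11 macrophage genes, led by Lyz2, the values were 103, 133 and 130.3 CPM in the controls and 159, 322 and 286 CPM in the knockouts, against 9555 to 12897 CPM in leukocytes. Of these, C1qa, C1qb and C1qc were lower than in chondrocytes and Cd14 was higher (1.01 ± 0.18). Of 7 leukocyte genes, Ptprc was limited by the rule and Laptm5 was higher (0.81 ± 0.19). All 4 tested erythroid genes were lower, with Hbb-bs at 0.518 to 55.8 CPM against 0.211 to 815 CPM in chondrocytes, most of it in control 3. The 8 endothelial genes, led by Eng, summed to 32.6 to 71.8 CPM and the 8 osteoclast genes, led by Ctsk, to 88.3 to 514 CPM. Called shares were 16.7% in the neutrophil and leukocyte lists, 36.4% in macrophage genes and 100% in erythroid genes, beside 35.0% of all genes.
Osteoblast markers, which include the hypertrophy genes Ibsp and Alpl, summed to 19806 to 56524 CPM, led by Ibsp. Chondrocytes held 23715 to 53849 CPM and osteoblast-gated cells far more, 157539 to 290819 CPM. Of 9 tested, 3 were higher and 3 lower, and Ifitm5, a gene of mature osteoblasts, was at 0 to 11.7 CPM against 406 to 1668 CPM in osteoblast-gated cells. Of 11 fibroblast and progenitor genes, 6 were lower and none higher, and their sum, led by Dcn, was 3889 to 6477 CPM in the 6 libraries, against 6583 to 18978 CPM in chondrocytes and 3971 to 11757 CPM in osteoblast-gated cells. Called were 66.7% of the tested osteoblast markers and 54.5% of the fibroblast and progenitor genes, beside 35.0% of all genes. What part RNA of osteoblasts, fibroblasts and the other kinds of cell has in the levels of the Ihh/Col10a1 cells was not tested.

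The libraries with deeper cells and with more free RNA could differ in how many cells show a gene at all, so each cell was also thinned to 5000 UMIs. Of the Ihh/Col10a1 cells of the 5 libraries, 30 to 66.9% then held a Pank1 UMI, against 3.70 to 9.73% of chondrocytes and 2.20 to 9.41% of leukocytes. The leukocyte share includes free RNA of the droplets and serves as the background. Without thinning, 40.0% to 98.6% of Ihh/Col10a1 cells held a Pank1 UMI, against 6.48% to 42.4% of chondrocytes and 5.24% to 25.5% of leukocytes. Mef2c was found in 90 to 98.6% of Ihh/Col10a1 cells and 50.2 to 67.4% of chondrocytes, and Pth1r in 98.8 to 100% and 71.9 to 93.8%. For Ptch1 the shares were 23.2 to 40.8% and 61.8 to 78.8%, and for Gli1 0 to 2.37% and 8.71 to 16.9%. Leukocytes of these libraries gave 28.5 to 51.9% for Mef2c, 6.70 to 42.7% for Pth1r, 6.96 to 18.0% for Ptch1 and 0.357 to 2.55% for Gli1, so the Gli1 share of the Ihh/Col10a1 cells was at the background. Thinned shares in the Ihh/Col10a1 cells did not overlap those in chondrocytes for Pank1, Mef2c, Pth1r, Ptch1 and Gli1. The shares depended on the thinning, and without it those of 11 of 12 genes checked moved. In control 1, for example, Ptch1 went from 40.8% to 88.2% of Ihh/Col10a1 cells and Gli1 from 2.37% to 16.6%. Col10a1 showed the limit of the measure, since 8.27 to 99.1% of thinned leukocytes held a Col10a1 UMI. The Spp1 share gave no distance at all, with 71.7 to 100% in Ihh/Col10a1 cells and 58.3 to 96.9% in leukocytes.

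The neighbours of the population in the plane of Ihh and Col10a1 differed from it by gene. Medians over the libraries with at least 10 cells in a zone were compared in order, from cells with Ihh but little Col10a1 (411 cells), through the Ihh/Col10a1 cells (839), to cells with Col10a1 and 1 or 2 UMIs of Ihh (163) and those with Col10a1 and none (131). Pank1 had a median of 37.8, 303, 146 and 38.3 CPM over these zones, and Aldh1a3 of 80.3, 352, 77.9 and 61.4 CPM. Both were highest in the Ihh/Col10a1 cells. Mmp13 had medians of 535, 1249, 3504 and 4361 CPM, and Spp1 of 3171, 6898, 25077 and 36631 CPM, but the libraries with enough cells were not the same in each zone. In the 3 libraries with enough cells in all 4 zones, Mmp13 was higher with 1 or 2 Ihh UMIs than in the Ihh/Col10a1 cells, and from there to no Ihh UMI it went from 2285 to 4361 CPM in control 1, from 3128 to 398 CPM in control 2 and from 3881 to 2158 CPM in knockout 3. Spp1 went from 6546 to 13875 CPM, from 28798 to 6391 CPM and from 27363 to 36631 CPM over the same step, so the last zone had no common direction. Ptch1 was higher in cells with Ihh and little Col10a1 than in the Ihh/Col10a1 cells in all 5 libraries with enough of both, with medians of 235 and 121 CPM, and so was Mki67, with 28.7 and 3.92 CPM. Libraries spread widely within zones, from 398 to 1848 CPM for Mmp13 in the Ihh/Col10a1 cells and from 398 to 6545 CPM where Ihh was 0. The zones are set by measured values of the same cells, so these medians are a description without a test.

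**Figure D4:**
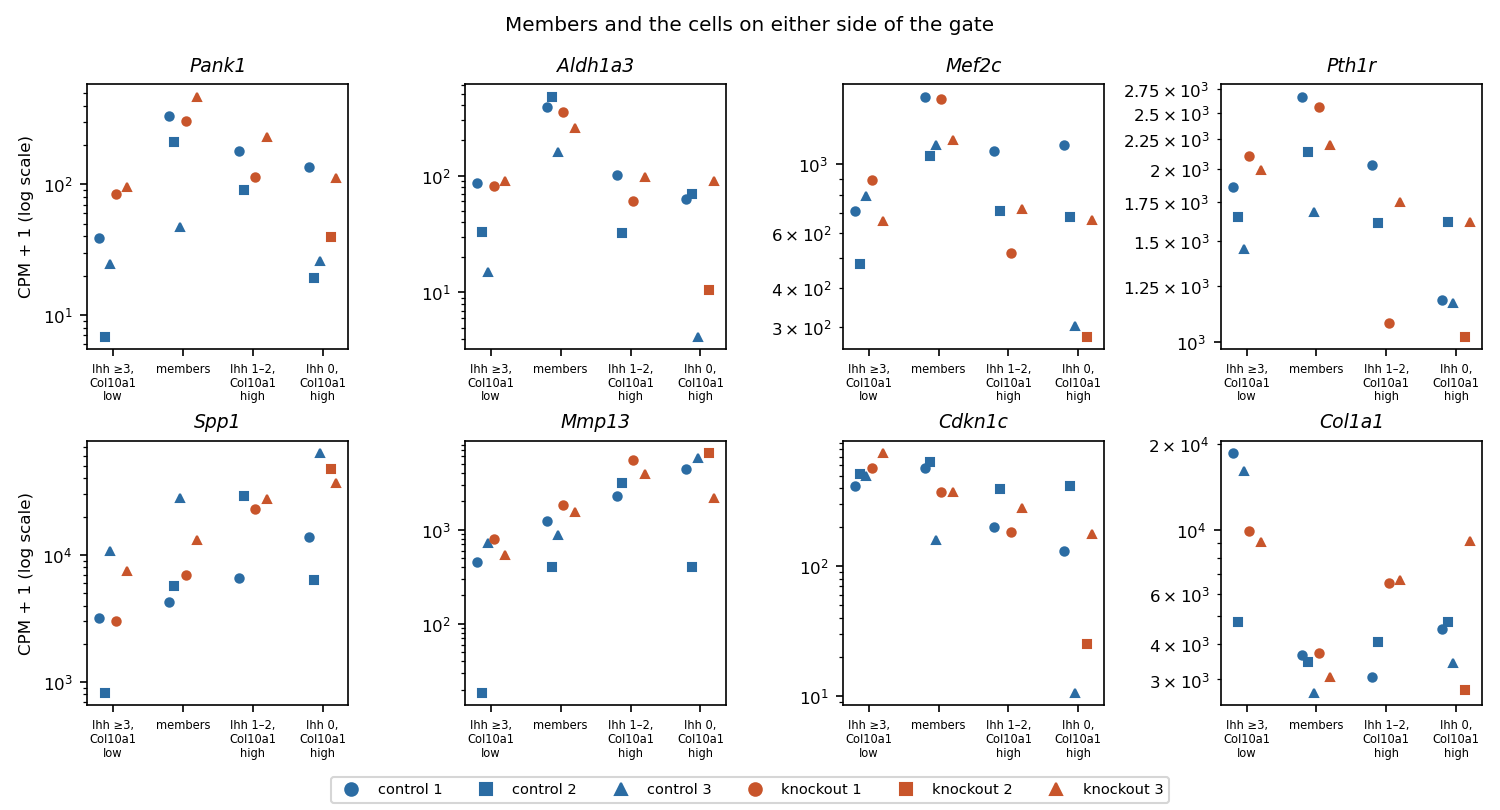
CPM + 1 of Pank1, Aldh1a3, Mef2c, Pth1r, Spp1, Mmp13, Cdkn1c and Col1a1 on log axes over 4 zones, in the order Ihh with Col10a1 under 0.5%, the Ihh/Col10a1 cells (members), Col10a1 with 1 or 2 Ihh UMIs and Col10a1 with no Ihh UMI. Each point is a library with at least 10 cells in the zone. Pank1 peaks in the Ihh/Col10a1 cells with a median of 303 CPM and Mmp13 lies higher with 1 or 2 Ihh UMIs than in the Ihh/Col10a1 cells in each of the 4 libraries with both, while the last zone shows no common direction.

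Within a library, Ihh/Col10a1 cells differed widely in Mmp13 and Spp1. In the 211 cells of control 1, Mmp13 had a 10th percentile, a median and a 90th percentile of 15.7, 98.6 and 3076 CPM, and in the 487 of knockout 3 of 35.3, 675 and 4635 CPM. Spp1 had 164, 1219 and 11031 CPM in control 1 and 559, 5005 and 36727 CPM in knockout 3. Alpl was far more even, with 606, 2177 and 3554 CPM in control 1, and so was Mef2c, with 633, 1613 and 2846 CPM. Ihh itself ran over 155, 545 and 1617 CPM in control 1. Over cells thinned to 5000 UMIs, Ihh and Col10a1 had a Spearman rho of 0.387 and 0.410 in controls 1 and 2 and 0.314 and 0.269 in knockouts 1 and 3, over 211, 53, 69 and 487 cells that share a library and were chosen by both genes. The rho of Mmp13 with Col10a1 lay between -0.092 and 0.347 in these libraries.

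The 9 Ihh/Col10a1 cells of knockout 2 stood apart from those of the other libraries. Their Cdkn1a level was 4979 CPM against 619.9 to 901 CPM elsewhere, and Ibsp and Spp1 were also highest there, at 50252 and 37339 CPM. Sox9 was at 98.1 CPM against 537 to 1085 CPM, and Ucma at 0 CPM. Runx1 was at 630.5 CPM against 78.6 to 284 CPM. As 9 cells of 1 library, they carry no replicate check.

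Whether loss of Piezo1 changed the number of cells in this state was asked from their share. The share was taken of Ihh/Col10a1 cells and chondrocytes together. It was 47.7%, 10.6% and 4.42% in the controls and 29.5%, 100% and 41.1% in the knockouts. The 411 barcodes with at least 3 UMIs of Ihh and less Col10a1 than the rule asks are in neither group. The value of knockout 2 is 9 of 9 cells (Wilson 95% interval 70.1% to 100%, counting error only), in a library with no chondrocyte. In that library 4 barcodes with Ihh but less Col10a1 lay outside both gates. So did 3 with enough Col10a1 and 1 or 2 Ihh UMIs, and 11 with no Ihh UMI. The means were 20.9% ± 23.4 (SD, n = 3) in controls and 56.9% ± 37.8 (SD, n = 3) in knockouts, a difference of 35.9 points (two-sided exact permutation test, p = 0.3, where 0.1 is the smallest p that 3 against 3 allows). Without knockout 2 the difference was 14.4 points and without knockout 3 it was 43.8 points. As a share of all barcodes that passed, the values were 10.3%, 1.02% and 0.183% in the controls and 4.53%, 0.148% and 9.07% in the knockouts, a difference of 0.752 points (exact permutation test, p = 1.0). That difference became 3.98, -0.655 and -1.07 points without controls 1, 2 and 3 in turn. Without knockouts 1, 2 and 3 in turn it became 0.776, 2.97 and -1.49 points. The groups overlapped on every denominator, and the range within a group was wider than the difference between them. How much of a callus a digestion releases as single cells was not measured, so the number of cells in the tissue and their recovery cannot be told apart.

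No gene passed the test between knockout and control in the Ihh/Col10a1 cells. Of 11851 genes tested in the 5 libraries with at least 10 cells, 0 passed an adjusted p of 0.05 in edgeR (0.0%), 221 had an unadjusted p under 0.05, and DESeq2 called 2. Knockout 2 was not in this fit either. Leaving out 1 library changed the count to between 0 and 110, with 14 calls without control 1, 25 without control 2, 110 without knockout 1 and 10 without knockout 3. A fit of controls 1 and 3 and knockouts 1 and 3 with the replicate number as a block gave 24 calls, and the same 4 libraries without it are the 25. Without knockout 1 or knockout 3, 1 knockout library is left, which is assumed to vary like the controls. A p that misses the threshold does not show that the genotypes act alike. Ihh stood at 536 CPM in knockout 1 and 1252 CPM in knockout 3, on either side of the 659.5 to 852 CPM of the controls, and Pank1 and Ptch1 also overlapped between the groups. Mmp13 did not overlap, at 398 to 1249 CPM in the controls and 1550.5 to 3872 CPM in the 3 knockouts (1.10 ± 0.43 on the log2 scale in the fit, edgeR adjusted p = 1.0). Of all 11851 genes tested, 622 (5.25%) were higher in both fitted knockouts than in every control. Of the 27 hypertrophy genes 2 were (7.41%), which is near that share.

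In the list of collagen folding and secretion no gene passed the test, but many separated the groups. Of its 31 genes, 16 were lower in both fitted knockouts than in every control (51.6%) and 0 higher, against 7.31% and 5.25% of all genes tested, and the median difference was -0.42 on the log2 scale against 0.02 over all genes. Hspa5, the main chaperone of the endoplasmic reticulum, stood at 631, 597 and 954 CPM in the controls and 457, 458 and 452 CPM in the knockouts. The collagen chaperone Serpinh1 stood at 1159, 1392 and 1768 CPM in the controls and 903, 1079 and 1130.1 CPM in the knockouts, and Fkbp10, another such chaperone, at 203, 280.1 and 275 CPM in the controls and 175, 145 and 154 CPM in the knockouts. All 3 were lower in each knockout, knockout 2 included, than in each control. With knockout 2 counted as well, 12 of the 31 genes (38.7%) and 4.51% of all genes lay under every control, and without knockout 3 it was 20 of 31 (64.5%) and 20.5%. In chondrocytes 2 of the 31 genes (6.45%) were lower in this way, against 7.83% of all genes. The summed level of the list was lower in knockouts 1 and 3 than in every control in both kinds of cell, at 12896 and 12852 CPM against 13178 to 17112 CPM in chondrocytes and at 8204 and 7639 CPM against 9472 to 13429 CPM in the Ihh/Col10a1 cells. Whether the difference was larger in the Ihh/Col10a1 cells was not tested for the list, and the list was singled out after its values were seen. The genes of a list vary together in a library, and 2 knockout libraries stand behind the count. Among 8 macrophage genes tested, 5 were higher in both fitted knockouts than in every control in Ihh/Col10a1 cells and 5 in chondrocytes, where 4.14% of all genes were, and their part in other differences was not tested.

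The genotype difference in Ihh/Col10a1 cells was also set against that in chondrocytes of the same libraries. This difference of differences passed an adjusted p of 0.05 for 8 of 14854 genes (0.0539%), 7 of them higher in knockout Ihh/Col10a1 cells relative to chondrocytes and 1 lower, and 699 had an unadjusted p under 0.05. Saa3, an acute-phase protein, stood at 1.14, 3.40 and 139.6 CPM in the controls and 1034, 4.67 and 0.195 CPM in the knockouts and in chondrocytes at 1.06, 6.0 and 325 CPM in the controls and 229 and 0.355 CPM in knockouts 1 and 3 (2.97 ± 0.41, edgeR adjusted p = 0.00189). Nearly all of the excess lay in 1 barcode of knockout 1 with 133318 UMIs, the deepest of all Ihh/Col10a1 cells, which held 89.8% of the Saa3 UMIs of that library's Ihh/Col10a1 cells. The same barcode held 96.6% of the Mmp3 UMIs, 87.6% of the Cxcl1 UMIs and 56.6% of the Ier3 UMIs. Mmp3, the protease stromelysin 1, stood at 0.518, 0 and 154 CPM in the controls and 684, 0 and 1.76 CPM in the knockouts (4.02 ± 0.59, adjusted p = 0.0022) and the chemokine Cxcl1 at 5.60, 17.8 and 0 CPM in the controls and 223, 0 and 31.5 CPM in the knockouts (3.12 ± 0.47, adjusted p = 0.0022).

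With barcodes above 120000 UMIs left out, an alternative added once the data had been seen, which takes away this 1 Ihh/Col10a1 cell, the difference for Saa3 became -0.08 and that for Mmp3 -0.10, and 2 genes in all passed. Ier3, an immediate early gene, stood at 108, 138 and 181 CPM in the controls and 234, 243 and 285 CPM in the knockouts (1.38 ± 0.23, adjusted p = 0.00574), and fell to 0.84 in that alternative. The pentraxin Ptx3 stood at 10.3, 8.49 and 4.65 CPM in the controls and 27.7, 0 and 22.1 CPM in the knockouts, against 54.2, 92.4 and 185 CPM in the controls and 58.3 and 39.1 CPM in knockouts 1 and 3 in chondrocytes (1.91 ± 0.32, adjusted p = 0.00691). No single cell held more than 7.61% of its UMIs in knockout 1. Trf, which encodes transferrin and had 29.9% of its UMIs of knockout 1 in 1 cell, stood at 21.7, 5.09 and 0 CPM in the controls and 26.2, 0 and 63.0 CPM in the knockouts (2.01 ± 0.38, adjusted p = 0.0342), and leukocytes held 47.6 to 109 CPM. Mtus2, the gene that was lower, stood at 13.7, 32.3 and 14 CPM in the controls and 13.6, 14 and 16.8 CPM in the knockouts, against 10.7, 18.7 and 8.0 CPM in the controls and 28.7 and 31.5 CPM in knockouts 1 and 3 in chondrocytes (-1.54 ± 0.30, adjusted p = 0.0361).

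Igha, an immunoglobulin heavy chain gene of plasma cells, also passed (3.45 ± 0.54, adjusted p = 0.004). In knockout 1 it rested on 23 UMIs in 6 of the 69 cells, 9 of them (39.1%) in 1 cell. It stood at 17.6, 20.4 and 9.31 CPM in the controls and 6.93, 0 and 3.81 CPM in the knockouts in the Ihh/Col10a1 cells and at 13.7, 16.7 and 6.55 CPM in the controls and 0.284 and 0.355 CPM in knockouts 1 and 3 in chondrocytes. Leukocytes of the same libraries held 239, 189 and 144 CPM in the controls and 0.622, 8.68 and 0.179 CPM in the knockouts, so the controls had more of it in leukocytes than the knockouts by a wide margin. In both kinds of cartilage cell the controls also had more than knockouts 1 and 3. The part of free RNA in these values was not tested. Without knockout 3, Igha, Ptx3, Saa3, Mmp3 and Cxcl1 passed as before, and Ier3, Trf and Mtus2 kept their direction but no longer passed. Over the 25 alternatives of the fit, Igha kept its call in 23, Mmp3 and Ier3 in 19, Ptx3 in 17, Saa3 and Cxcl1 in 16, Trf in 12 and Mtus2 in 9.

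**Figure D5:**
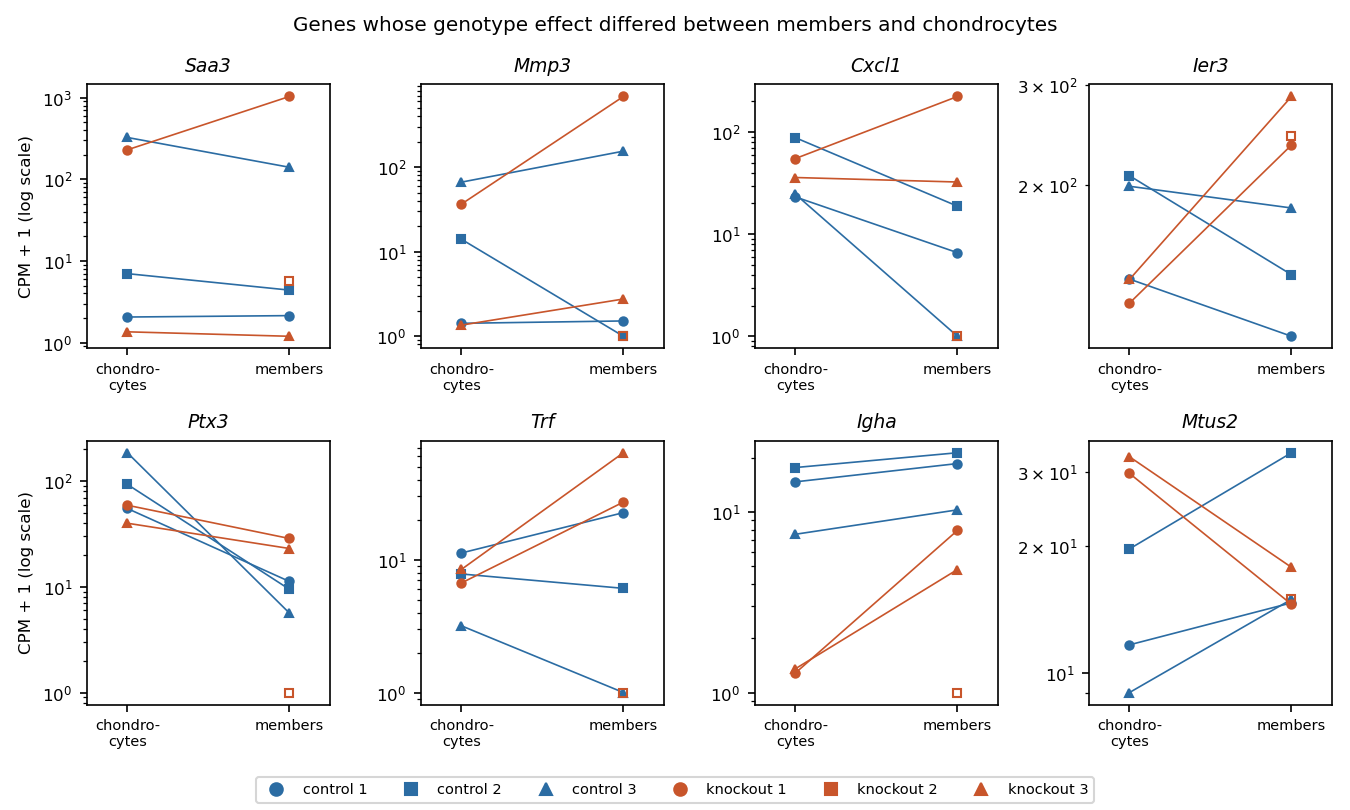
Levels in Ihh/Col10a1 cells (members) and chondrocytes of each library, as CPM + 1 on a log axis, for the 8 genes whose genotype difference was not the same in the 2 kinds of cell (adjusted p under 0.05). Colours mark the genotype and symbols the library, and the open square is knockout 2. Saa3, Mmp3 and Cxcl1 are high in 1 knockout library, knockout 1, at 1034, 684 and 223 CPM, and Saa3 stands at 0.195 CPM in knockout 3.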

How the data were processed

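Per the labels and the study's methods, the authors prepared the calluses with the 10x Genomics 3′ v3 kit, sequenced the libraries on a NovaSeq and counted reads with Cell Ranger (6.1.1 for replicate 1 of each group, 6.1.2 for the others) on GRCm38. The deposited files hold filtered matrices of raw UMI counts per gene and barcode, and the gene annotation release is not given in the sources used here. The 52081 genes listed in all 6 libraries were used.

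Barcodes were gated by the rule in Python 3.11.15 with numpy 2.4.6, scipy 1.17.1 and pandas 2.3.3. Scrublet, as held in scanpy 1.11.5, gave doublet scores at an assumed 0.8% per 1000 cells, and no cell was removed. UMIs were summed per library and kind of cell, and libraries with at least 10 cells were tested with edgeR 4.0.16 in R 4.3.3 (filterByExpr, TMM, quasi-likelihood F test, Benjamini-Hochberg adjustment), after tests on simulated data. Genes of the rule and mitochondrial genes were left out of library sizes and tests. The cells were compared with chondrocytes with library as a block, the genotypes without a covariate, and their difference between the kinds of cell as an interaction. Differences are log2 fold changes ± SE. DESeq2 1.42.0, other limits, thinning to 5000 UMIs and leaving out single libraries were the alternatives. Figures were drawn with matplotlib 3.10.9.

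Genes were named if they belonged to the 29 lists, to the rule, or to the 15 with the largest fold in each direction at an adjusted p under 0.05, a mean of at least 50 CPM and 1 direction in all libraries fitted. All 8 interaction genes are named, also those whose groups overlap, and so are Xist and Ddx3y, chosen after their values were seen. The members, lists and tests were chosen with earlier results of these data known. The depth of each library sets the precision of its values, and counting intervals cover counting error only. Cell Ranger version and depth run with replicate 1 of both groups, so batch and group are not confounded for these.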

Additional observations from a re-analysis of the deposited data

Results flagged for a closer look

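For 8 genes the difference between knockouts and controls was not the same in Ihh/Col10a1 cells and in chondrocytes, by the edgeR test of the interaction with Benjamini-Hochberg adjustment over 14854 genes in the 5 libraries with both kinds of cell. The difference of differences was 2.97 on the log2 scale for Saa3, 4.02 for Mmp3, 3.12 for Cxcl1, 3.45 for Igha, 1.38 for Ier3, 1.91 for Ptx3, 2.01 for Trf and -1.54 for Mtus2. For Saa3, Mmp3, Cxcl1 and Ier3 most UMIs of knockout 1 lay in 1 barcode. For Igha, leukocytes of the controls held 144 to 239 CPM and those of the knockouts 0.179 to 8.68 CPM.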

How the results depend on the processing

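The count of genes that separated Ihh/Col10a1 cells from chondrocytes, 4599, stayed within 1.5 times of itself except with cells thinned to 5000 UMIs (2034), without the library block, that is with no replicate block (1857), in the control libraries alone (1889) and without control 1 (2957). Leaving out single libraries gave 2957 to 4836. Between genotypes, in place of 0 of 11851 genes, 1 passed with Ihh at 0.02% of UMIs or more, 4 with thinned cells, 2 in DESeq2, 39 without a filter on low counts, 39 without replicate 3 of both groups, and 0 to 110 without single libraries (110 without knockout 1, 25 without control 2, 14 without control 1, 10 without knockout 3). The replicate block, which leaves out control 2, gave 24, against 25 for the same 4 libraries without it. Replicates 1 and 3 had a correlation of 0.313 between deviations from the group means, 1 value for both by construction. Replicate 1 shares a Cell Ranger version and depth across groups and replicate 3 a gene list, and whether the numbers pair the mice was not tested. In place of 8 genes in the interaction, 14 passed with Ihh at 2 UMIs, 5 at 5 UMIs, 0 with Col10a1 at 1% (687 at an unadjusted p under 0.05 in edgeR), 4 at 10000 UMIs or more, 2 at 60000 and 2 at 120000 or fewer, 44 with the chondrocyte limit at 0.5%, 21 with thinned cells, 4 in DESeq2, 65 without a filter, 4 with at least 30 cells per library, 13 without replicate 3 of both groups and 4 to 92 without single libraries (92 without control 1, 35 without control 2, 25 without knockout 1, 24 without knockout 3, 4 without control 3). At 120000 UMIs or fewer Saa3 came to -0.082 and Mmp3 to -0.098, and Mmp3 came to -0.077 at 60000. The cause of these changes was not tested. Without single libraries the share difference was 14.4 to 49.6 points of Ihh/Col10a1 cells and chondrocytes together. It was -1.49 to 3.98 points of all barcodes and -1.97 to 5.61 points of stromal barcodes. For 66 genes, the 15 highest and 15 lowest among them but not all that are named, 1838 of 1847 alternative values kept direction and call, 4 lost the call, 5 gained it and 0 reversed. Control 3 and knockout 2, with 10 and 9 cells, limit what can be seen in low genes.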
